A study of Mus musculus with 12 samples.

Results

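Cyclins are the regulatory partners of the cyclin-dependent kinases (CDKs), and their stepwise synthesis and destruction drives a cell from one phase of the cycle to the next. D-type cyclins pair with CDK4 and CDK6 in response to mitogens, E-type cyclins with CDK2 at the start of DNA replication, cyclin A2 with CDK2 and CDK1 from S phase into G2, and the B-type cyclins with CDK1 for mitosis. Cyclin F is the substrate receptor of an SCF ubiquitin ligase and has no known CDK partner, and cyclin G2 is an atypical cyclin linked to cell cycle arrest. In B cells, cyclins D2 and D3 are the D-type cyclins best known for the entry into cycle and for its upkeep, and LPS is a mitogen that makes resting B cells divide.

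The mRNA of 10 cyclin genes (Ccnd1, Ccnd2, Ccnd3, Ccne1, Ccne2, Ccna2, Ccnb1, Ccnb2, Ccnf and Ccng2) was followed in LPS-activated mouse B cells with and without DNA damage. The genes were taken by name from the 29486 genes of the normalized count table, which lists all 10. All 10 also passed a filter on low values, which kept 15616 genes that reached a normalized count of 10 in 4 or more libraries. Each condition had 4 libraries, 12 in all, of total mRNA from splenic B cells of C57BL/6Babr mice, which the study's methods give as 8 to 12 weeks old. Cells received LPS alone at 10 micrograms/ml (LPS), LPS for 48 h and then 20 µM etoposide for 4 h (LE), or LPS for 47 h, 10 µM of the ATM kinase inhibitor KU55933 for 1 h and then etoposide for 4 h (LEKU). Etoposide traps topoisomerase II on DNA and causes double-strand breaks, and ATM is the kinase that signals such breaks. RNA of control and treated cells was taken 4 h after the time of etoposide addition. All cells had LPS, and none had KU55933 without etoposide. The libraries of a condition carried sequencing indexes of their own, and index and condition cannot be told apart.

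The deposited columns summed to between 20739978 and 23935658 per library with LPS, 22523516 and 30575195 with LE, and 20400994 and 25052093 with LEKU. The 4 columns of a condition were proportional to each other over all genes, to within 1.4e-14 in log2 units. The table therefore held 1 fitted value per gene and condition times 1 factor per library, and no spread between replicates. No test between conditions could be made, and the values are reported as a description, with 2-fold as the size that counts as past the limit. The brackets are 95% intervals for counting error (exact Poisson for a level, exact Clopper-Pearson for a ratio). They are taken from the summed columns of a condition, which are fitted values and not observed counts, and are thus approximate. Those of a ratio leave out the 1 added before each log2 difference, which matters for low genes such as Ccnd1. The differences between cultures come on top of these intervals. Of the B cell markers Cd79a, Cd79b, Ms4a1, Pax5, Cd22 and Blk, all 6 were kept, and 0 of 5 T cell markers were, with fitted counts of at most 3.59. The summed B cell markers went from 104536 with LPS to 57679 with LE and 55261 with LEKU. Of these 6, 3 (Pax5, Cd22 and Blk) were at least 2-fold lower with LE (median −0.95), beside 4.87% of all kept genes. The 7 myeloid markers summed to 404, 493 and 440. Of these 7, 4 were at least 2-fold higher with LE (median 1.09), beside 15.3% of all kept genes. Among the 4 were Cd14 (4.99, 24.7 and 41.1) and Cd68 (101, 216 and 177), while Itgam had 213, 132 and 116. Plasmablast markers (5 of 5 kept) summed to 24135, 26455 and 16234. At least 2-fold higher with LE was 1 of them, Sdc1 (133, 1998 and 644), beside 15.3% of all kept genes. Red blood cell markers (1 of 3 kept) summed to 9.53, 50.7 and 17.6, and both measured NK cell markers were at or below 1.08. The part of these differences in the cyclin values was not tested.

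The sequences before the start sites of the G2 and mitotic members are shown for Ccnb1, Ccnb2 and Ccnf, whose promoters all held a CCAAT box, to set those of the mitotic cyclins beside that of Ccnf. A pair of known elements was searched on both strands of the 300 bases from 250 before to 50 after each RefSeq start on GRCm38.p6. These were the CCAAT box (CCAAT), which binds NF-Y, and the cell cycle homology region (CHR, TTTGAA or TTCGAA), which binds the DREAM and MuvB complexes. The table held promoters for 6 of the 10 genes, and those of Ccnd1, Ccnd2, Ccne2 and Ccna2 were not searched here. Windows of 30 bases follow, written 5′ to 3′ on the strand of the gene, with the motif in capitals.
Ccnb1, CCAAT box 67 bases before the start, chr13:100786536-100786565: gccacgaactggCCAATgaggagcgagcgg
Ccnb2, CCAAT box 54 bases before the start, chr9:70421591-70421620: cttccagtctagCCAATgggttgcgcgcgc
Ccnb2, CHR from base 5 after the start, chr9:70421533-70421562: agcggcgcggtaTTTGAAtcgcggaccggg
Ccnf, CCAAT box 107 bases before the start, chr17:24251499-24251528: gtcctggtgtagCCAATcacaaatgcccag
Ccnf, CHR 14 bases before the start, chr17:24251406-24251435: gctcccggcgcgTTTGAAaacggggcgggg

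The Ccnb2 promoter held 3 CCAAT boxes and 2 CHR matches, and that of Ccnf held 2 of each. The Ccnb1 promoter held 2 CCAAT boxes and no CHR match in this window. Of all 32851 promoters, 37.4% held a CCAAT box, 19.2% a CHR match, 7.52% both, and 11.7% 2 or more CCAAT boxes. The downstream of the 2 Ccnd3 promoters held 1 CCAAT box, and the promoters of Ccne1 and Ccng2 held neither motif. An E2F element (TTTCCCGC, TTTCGCGC, TTTGGCGC or TTTGCCGC), found in 2.26% of all promoters, had no match in the promoters of these 6 genes. A match is a run of letters and says nothing of binding in these cells. The gene coordinates given below are those of GENCODE M21, whose 5′ ends differ from the RefSeq starts. By those coordinates, the Ccnb1 window and the Ccnf CHR window lie inside the gene.

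With etoposide, the mitotic cyclins were the lowest of the list relative to LPS, Ccnd3 was also more than 2-fold lower, and Ccnf, Ccne2 and the scarce Ccnd1 were higher. The 10 log2 differences of LE against LPS ran from −1.80 to 1.46 with a median of −0.59, and 6 of them were below 0. Over all kept genes the median was 0.07. At least 2-fold lower were 3 of the 10 (Ccnb1, Ccnb2 and Ccnd3), beside 4.87% of all kept genes, and at least 2-fold higher was 1 (Ccnd1), beside 15.3%. Other scalings between conditions moved these counts. Past 2-fold were Ccnb1 and Ccnb2 in 5 of 5 other scalings, Ccnd3 and Ccnd1 in 4, Ccne1 in 3, Ccna2 in 2 and Ccnf in 1. In bulk mRNA, fewer cells in a phase and less mRNA per cell cannot be told apart.

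When KU55933 preceded etoposide, the cyclins that etoposide had left higher were near or below the LPS level, except Ccnd1, and the mitotic cyclins stayed low. Against LE, the 10 log2 differences ran from −1.07 to 0.25 with a median of −0.23, beside −0.05 for all kept genes, and 8 were below 0. At least 2-fold lower was 1 gene (Ccnf), beside 4.73% of all kept genes, and none was at least 2-fold higher, beside 1.69%. LEKU against LPS had 4 genes at least 2-fold lower (Ccne1, Ccna2, Ccnb1 and Ccnb2), beside 5.03%, and 1 at least 2-fold higher (Ccnd1), beside 12.3%. In the other scalings, Ccna2, Ccnb1 and Ccnb2 passed 2-fold in 5 of 5, Ccne1 in 3, Ccnd1 in 2 and Ccnd3, which was just inside 2-fold here, in 2. The number at least 2-fold lower was 3 to 5 in these scalings. The median of that comparison was −0.66, and that of all kept genes 0.09. The 3 comparisons rest on 3 fitted values per gene and share their libraries, so that they are not separate evidence.

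**Figure D1:**
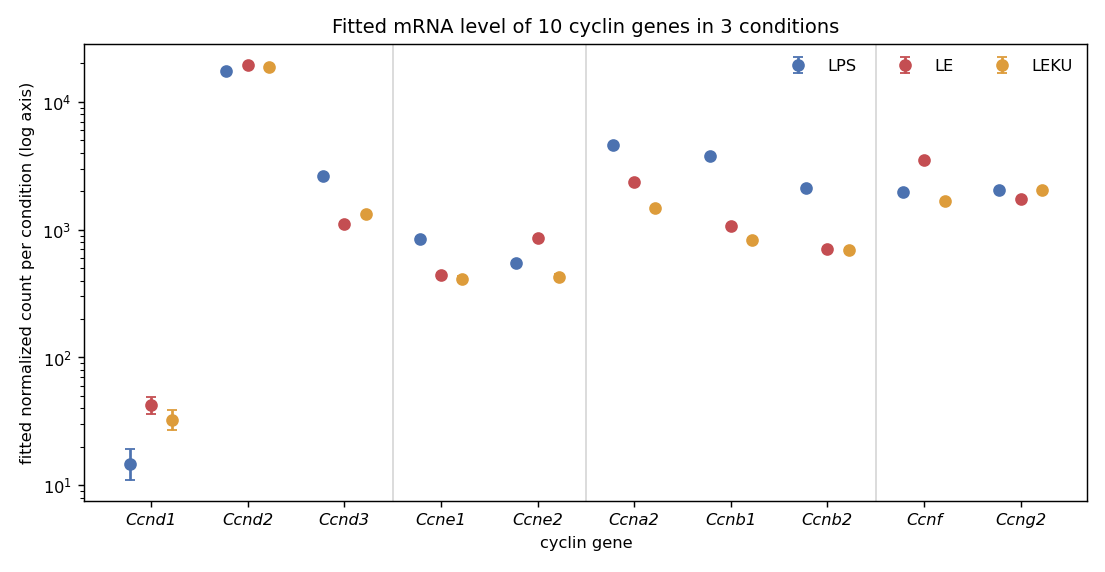
Fitted normalized counts (log axis) of the 10 cyclin genes with LPS, LE and LEKU, 1 point per condition fitted over 4 libraries, with 95% Poisson intervals for counting error only, which are smaller than the point for most genes. Ccnb1 goes from 3754 to 1076 and 832, while Ccnf goes from 1960 to 3496 and back to 1669.

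Cyclin B1, which with CDK1 triggers entry into mitosis, is encoded by Ccnb1 (ENSMUSG00000041431, GRCm38 chromosome 13, 100778650 to 100786570, minus strand). Its deposited values in replicates 1 to 4 were 3182, 3530, 3672 and 3309 with LPS, 1022, 1146, 1388 and 1111 with LE, and 745, 841, 901 and 915 with LEKU. The columns of the 3 conditions did not overlap, although within a condition they differ by the library factor alone and show no variation between cultures. For how many of all kept genes the columns lie apart was not counted, here or for the genes below. After division by these factors the levels were 3754 (3691 to 3817) with LPS, 1076 (1045 to 1107) with LE and 832 (804 to 860) with LEKU. LE was at 28.7% of LPS, a log2 difference of −1.80 (−1.85 to −1.76) that lay at the 0.519th percentile of all kept genes. LEKU was lower than LE by a further −0.37 (−0.43 to −0.31) on the log2 scale, and at 22.2% of LPS.

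Ccnb2 (ENSMUSG00000032218, chromosome 9, 70407692 to 70421547, minus strand) encodes cyclin B2, the other mitotic B-type cyclin of these cells. It had 2104 (2057 to 2152) with LPS, 704 (679 to 729) with LE and 687 (662 to 713) with LEKU. LE was at 33.5% of LPS (log2 difference −1.58), and LE and LEKU differed by less than the counting error (−0.03, −0.11 to 0.04), with a sign that depends on the scaling between conditions. The pseudogene Ccnb2-ps, which could share reads with Ccnb2, had 89.2, 85.0 and 97.7 in the same order and did not follow the lower level of Ccnb2. The next coding gene downstream, Myo1e, 7926 bases away on the opposite strand, had 3913, 1409 and 1096, lower with LE and LEKU like Ccnb2. The next upstream, Rnf111, 3877 bases away on the same strand, had 1788, 1756 and 1673. Reads that run from one gene into the next were not tested.

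Cyclin A2, needed for DNA replication and for the passage through G2, was lower in steps. Ccna2 (ENSMUSG00000027715, chromosome 3, 36564865 to 36572150, minus strand) had deposited values in replicates 1 to 4 of 3895, 4322, 4496 and 4051 with LPS, 2250, 2521, 3054 and 2444 with LE, and 1321, 1489, 1596 and 1622 with LEKU. The columns of the 3 conditions did not overlap, which follows from the fitted values and library factors and shows no agreement between cultures. The fitted levels were 4595 (4526 to 4665), 2367 (2321 to 2413) and 1474 (1437 to 1512). The log2 difference was −0.96 (−0.99 to −0.92) with LE, just inside 2-fold, and −1.64 (−1.68 to −1.60) with LEKU. Between LEKU and LE, it was the A- or B-type gene with the lowest log2 difference, −0.68 (−0.73 to −0.64). Of its 4083 exonic bases, 510 overlap those of Exosc9 on the opposite strand, whose level went the other way (1209, 2065 and 1335). Bbs7, 992 bases upstream on the same strand, had 50.7, 223 and 140. A part of these reads in the Ccna2 value was not tested, and the strand setting of the read counter is not given in the sources used here.

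**Figure D2:**
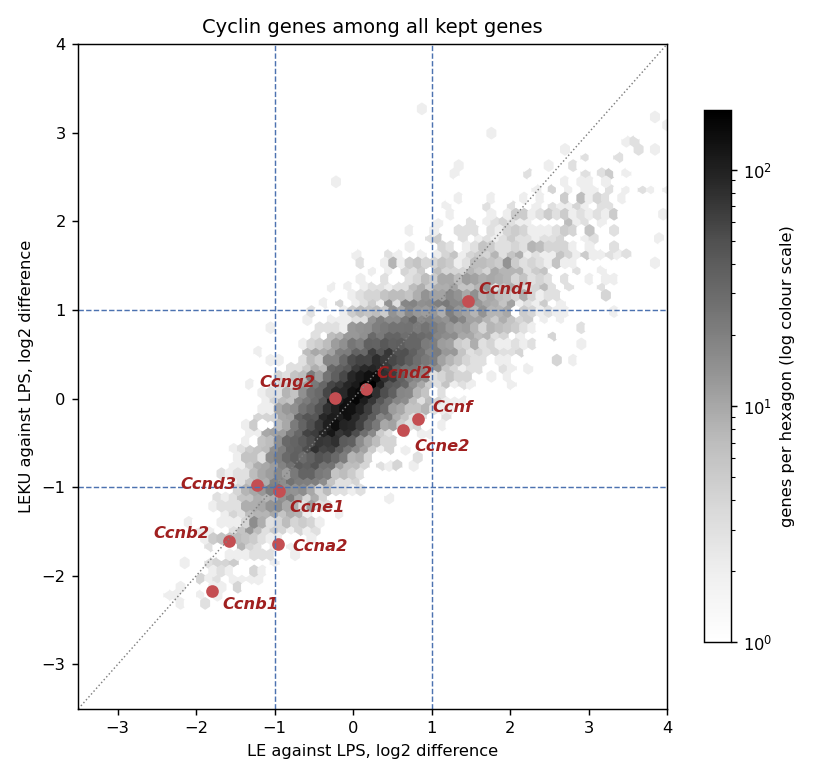
Log2 difference of LEKU against LPS (vertical axis) over that of LE against LPS (horizontal axis), with the kept genes as grey hexagons on a log colour scale (those past the axis limits are not shown) and the 10 cyclins as red points, dashed lines at 2-fold and a dotted line of equal differences. Both axes share the LPS libraries, and Ccnf and Ccne2 lie right of 0 and below 0, while Ccnb1 lies furthest to the lower left of the 10.

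Ccnf, which encodes cyclin F and is usually most abundant in G2 like Ccna2, went the opposite way from the mitotic cyclins with etoposide. It lies on chromosome 17 (ENSMUSG00000072082, 24222198 to 24251484, minus strand). Its deposited values in replicates 1 to 4 were 1662, 1843, 1918 and 1728 with LPS, 3323, 3724, 4510 and 3610 with LE, and 1495, 1686, 1807 and 1836 with LEKU. The LE columns were above all others, and the LPS and LEKU columns overlapped. This follows from the fitted values and library factors and shows no agreement between cultures. The fitted levels were 1960 (1915 to 2006), 3496 (3440 to 3552) and 1669 (1630 to 1709). LE was thus at 178% of LPS (log2 difference 0.83, 0.79 to 0.88), and LEKU at 47.7% of LE (−1.07, −1.11 to −1.03) and at 85.2% of LPS. Among all kept genes, the difference of LE against LPS lay at percentile 81.8. Per kilobase of exon, Ccna2 had 4.48 times the level of Ccnf with LPS, 1.29 times with LE and 1.69 times with LEKU. The next coding gene downstream on the same strand, Tedc2, 1347 bases away, had 317, 622 and 363, and the next upstream, Abca17, 12775 bases away, had 13.6, 36.1 and 13.6. Both were highest with LE like Ccnf, and reads that run from one gene into the next were not tested.

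The E-type cyclins, which start DNA replication with CDK2, differed from each other. Ccne1 (ENSMUSG00000002068, chromosome 7, 38097984 to 38107534, minus strand) had 847 (817 to 877) with LPS, 438 (419 to 458) with LE and 411 (392 to 431) with LEKU. Both etoposide conditions were close to 2-fold lower, with log2 differences of −0.95 and −1.04 against LPS, and LEKU against LE was −0.09 (−0.19 to 0.00), at the edge of the counting error.

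Ccne2 (ENSMUSG00000028212, chromosome 4, 11191351 to 11204779, plus strand) had deposited values in replicates 1 to 4 of 464, 514, 535 and 482 with LPS, 813, 912, 1104 and 884 with LE, and 385, 434, 465 and 473 with LEKU. The LE columns were again above all others, and those of LPS and LEKU overlapped, which again reflects fitted values and library factors alone. The fitted levels were 547 (523 to 571), 856 (828 to 884) and 430 (410 to 450). LE was at 156% of LPS (log2 difference 0.64, 0.57 to 0.73), and LEKU at 50.2% of LE (−0.99, −1.08 to −0.91) and 78.6% of LPS. Among all kept genes, the difference of LE against LPS lay at percentile 77.6. Per kilobase, Ccne1 made up 67.0% of the E-type sum with LPS, 40.2% with LE and 55.7% with LEKU, so that Ccne2 was the more abundant of the pair with LE alone among the 3 conditions. The sum itself was 475, 409 and 277 per kilobase. The next coding gene upstream on the same strand, 16972 bases away, is the p53 target Trp53inp1, with 5988, 44625 and 28920, and Ints8, which shares 609 exonic bases with Ccne2 on the other strand, had 1751, 1790 and 1563. Trp53inp1 was highest with LE like Ccne2 but stayed far above its LPS level with LEKU, and reads running on from it were not tested.

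**Figure D3:**
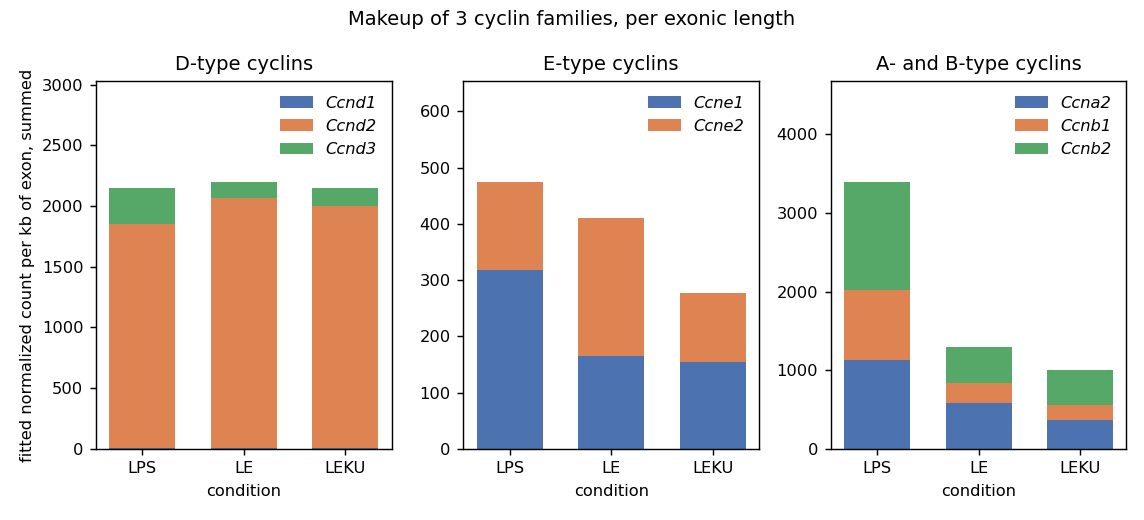
Fitted normalized counts per kilobase of exon, stacked by gene, for the D-type (left), E-type (middle) and A- and B-type cyclins (right) with LPS, LE and LEKU; the vertical axes start at 0 and differ in scale. The D-type sum stays between 2146 and 2195, the E-type sum goes from 475 to 277, and the A- and B-type sum from 3390 with LPS to 1294 with LE and 1007 with LEKU.

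Among the D-type cyclins, the sum per kilobase was 2146, 2195 and 2149 with LPS, LE and LEKU, while its makeup differed more. Ccnd2 (ENSMUSG00000000184, chromosome 6, 127125162 to 127152193, minus strand) had 17358 (17223 to 17494) with LPS, 19369 (19238 to 19500) with LE and 18733 (18600 to 18866) with LEKU. These are log2 differences of 0.16 and 0.11 against LPS, and their sign depends on the scaling between conditions, since the other scalings gave −0.01 to 0.41 and −0.02 to 0.30. An antisense gene that shares 368 exonic bases with it, 9330179D12Rik, had 26.2, 30.7 and 33.7. Ccnd2 made up 86.0% of the D-type sum with LPS, 93.8% with LE and 92.7% with LEKU.

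Ccnd3 (ENSMUSG00000034165, chromosome 17, 47505051 to 47599691, plus strand) was the D-type gene with the lower level after etoposide. Its deposited values in replicates 1 to 4 were 2219, 2462, 2561 and 2308 with LPS, 1061, 1189, 1441 and 1153 with LE, and 1187, 1338, 1433 and 1457 with LEKU. The LPS columns were above all others, and those of LE and LEKU overlapped, with the library factor as the only difference within a condition. The fitted levels were 2618 (2566 to 2671), 1116 (1085 to 1148) and 1324 (1289 to 1360), log2 differences against LPS of −1.23 (−1.28 to −1.18) and −0.98 (−1.03 to −0.94). LEKU was above LE by 0.25 (0.19 to 0.30) on the log2 scale, the highest value of the 10 in that comparison, next to Ccng2 with 0.24. Bysl, which shares 361 exonic bases with Ccnd3 on the opposite strand, had 1136, 926 and 800, and the pseudogene Ccnd3-ps at most 2.63. Ccnd2 had 6.18 times the level of Ccnd3 per kilobase with LPS, 16.2 times with LE and 13.2 times with LEKU.

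Ccnd1 (ENSMUSG00000070348, chromosome 7, 144929931 to 144939925, minus strand), the D-type cyclin of many non-lymphoid tissues, was scarce throughout. It had 14.7 (11.0 to 19.2) with LPS, 42.3 (36.4 to 48.9) with LE and 32.6 (27.3 to 38.6) with LEKU, and at most 0.409% of the D-type sum per kilobase. The summed columns behind these values were 53.6, 184 and 133 counts, so that its log2 differences against LPS, 1.46 (1.07 to 1.98) with LE and 1.10 (0.67 to 1.62) with LEKU, have the widest intervals of the list. Among all kept genes, the difference with LE lay at percentile 90.1. Of its 4709 exonic bases, 1100 overlap LTO1 on the opposite strand, which had 413, 476 and 525, above Ccnd1 in each condition, and a part of those reads in the Ccnd1 value was not tested.

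Ccng2 (ENSMUSG00000029385, chromosome 5, 93267257 to 93276231, plus strand) was the gene with the smallest log2 difference of LEKU against LPS. It had 2037 (1991 to 2084) with LPS, 1737 (1698 to 1776) with LE and 2049 (2005 to 2093) with LEKU, log2 differences of −0.23 (−0.28 to −0.18) and 0.01 (−0.04 to 0.05) against LPS. The sign of both depends on the scaling, which gave −0.40 to 0.02 and −0.12 to 0.17. Its relative Ccng1, a known p53 target outside the list of 10, had 5484 with LPS, 52197 with LE and 30968 with LEKU (log2 differences 3.25 and 2.50 against LPS), far above the differences of Ccng2.

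Per kilobase of exon, Ccnd2 was first in every condition (1845, 2059 and 1991) and Ccnd1 last (3.12, 8.99 and 6.93), while the order between them was not the same. With LPS, Ccnd2 was followed by Ccnb2 (1374), Ccna2 (1125) and Ccnb1 (890), and then at some distance by Ccng2 (373), Ccne1 (318), Ccnd3 (298), Ccnf (251) and Ccne2 (156). With LE, Ccna2 (580) came second, ahead of Ccnb2 (460) and Ccnf (448), then Ccng2 (318), Ccnb1 (255), Ccne2 (245), Ccne1 (165) and Ccnd3 (127). Ccnf thus had rank 8 with LPS and rank 4 with LE. With LEKU the order was Ccnb2 (449), Ccng2 (375), Ccna2 (361), Ccnf (214), Ccnb1 (197), Ccne1 (154), Ccnd3 (151) and Ccne2 (123). Neighbours such as Ccnb2 and Ccnf with LE, or Ccne1 and Ccnd3 with LEKU, are close enough that the spread between cultures, which the table does not hold, could turn them. Ccnd2 made up 27.8% of the summed level of the 10 with LPS and 44.1% and 49.5% with LE and LEKU.

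The kinases that the cyclins activate were lower too. All 4 CDK partners were below their LPS level with LE, 2 of them at least 2-fold (median −0.82), beside 4.87% of all kept genes. All 4 were lower again with LEKU than with LE, none of them 2-fold (median −0.41, and −0.05 over all kept genes), beside 4.73%. Cdk1, the partner of cyclins A2 and B, had 2422 with LPS, 861 with LE and 536 with LEKU (log2 differences −1.49 and −2.17 against LPS), close to the −1.80 and −2.17 of Ccnb1. Cdk6, a partner of the D-type cyclins, had 660, 322 and 172, and Cdk4, the other, 5380, 4326 and 3946. Cdk2 had 2747, 1803 and 1631. Of 9 genes for CDK activation, 3 were at least 2-fold lower with LE, beside 4.87% of all kept genes. None was at least 2-fold higher, beside 15.3% (median −0.58). The 3 lower ones were the phosphatase genes Cdc25b (−1.52) and Cdc25c (−1.06), whose products activate CDK1, and Cks2 (−1.29), which encodes a CDK-binding subunit. Wee1, the kinase that holds CDK1 inactive, had −0.70.

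CDK inhibitor genes lay on both sides of their LPS level. With LE, 4 of 7 were at least 2-fold higher, beside 15.3% of all kept genes, and 1 at least 2-fold lower, beside 4.87% (median 1.10). The p53 target Cdkn1a, which encodes p21, had 397 with LPS, 13749 with LE and 10923 with LEKU. Cdkn2b, an inhibitor of CDK4 and CDK6, had 70.0, 203 and 78.1, and Cdkn2c, another, named after its values were seen, 514, 1102 and 511, so that both were near the LPS level with LEKU, in the manner of Ccnf and Ccne2. Cdkn2d, also of that type, went the other way (523, 158 and 239), and Cdkn1c was scarce (3.68, 11.8 and 9.30).

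Cyclins are removed by ubiquitin ligases, whose genes were followed in 2 lists. The anaphase-promoting complex (APC/C) destroys cyclins A and B. Of 17 genes for it and its regulators, 2 were at least 2-fold lower with LE, beside 4.87% of all kept genes. None was at least 2-fold higher, beside 15.3% (median −0.28). The 2 lower ones were its conjugating enzymes Ube2c (2356, 504 and 536) and Ube2s (3164, 1465 and 1634). Its inhibitor gene Fbxo5 had a log2 difference of −0.87 and its activator gene Fzr1 −0.67 with LE. Cdc20, the mitotic activator, differed little with LE (−0.28). It was the 1 gene of the list at least 2-fold lower in LEKU against LE (−1.30), beside 4.73% of all kept genes. Of 9 genes for SCF and other ligases that act on D- and E-type cyclins, none was past 2-fold in either comparison. Over all kept genes, 4.87% were at least 2-fold lower and 15.3% higher with LE, and 4.73% and 1.69% in LEKU against LE. The lowest of the 9 with LE were Ambra1 (−0.64), a receptor for D-type cyclins, Cul3 (−0.62), Cul1 (−0.45) and Fbxw7 (−0.42), the receptor for cyclin E.

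**Figure D4:**
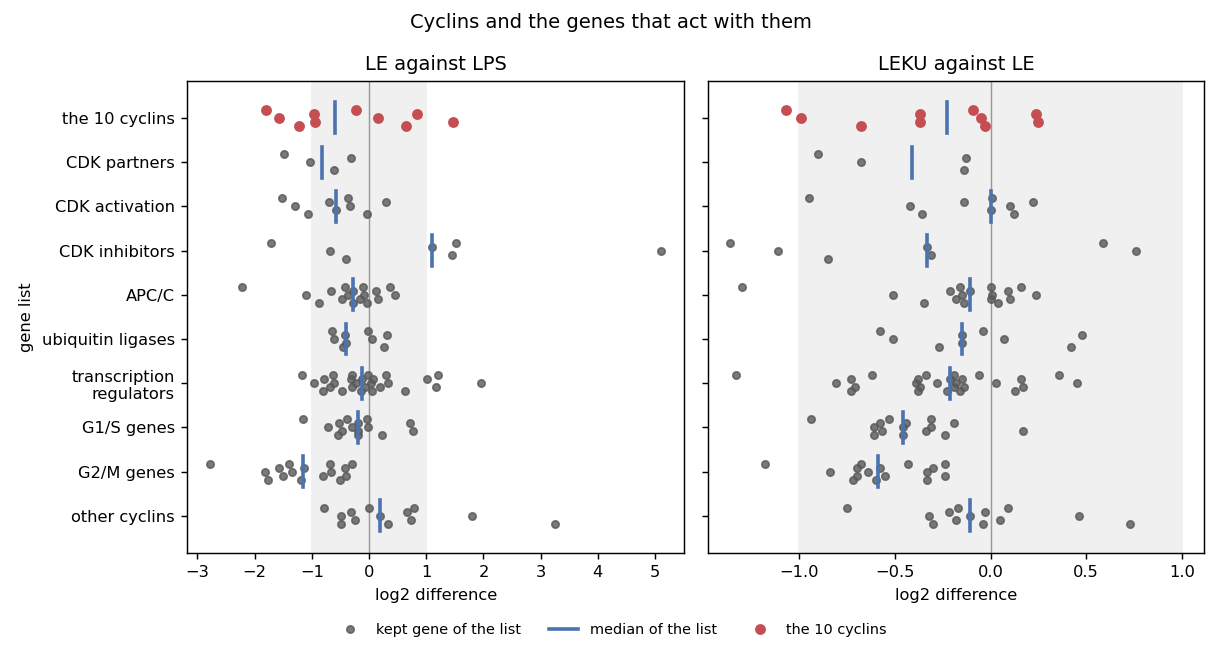
Log2 differences of LE against LPS (left) and LEKU against LE (right) for the 10 cyclins (red) and for the kept genes of 9 lists (grey, 1 point per gene), with the median of each list as a blue bar and the range under 2-fold shaded; the horizontal scales of the panels differ. All 16 G2/M genes lie below 0 in both panels, and the 10 cyclins lie on both sides.

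Of 27 genes for regulators of cyclin transcription, 4 were at least 2-fold higher with LE and 1 lower (median −0.12). These counts are near the shares of all kept genes, 15.3% higher and 4.87% lower, and do not set the list apart. The higher ones among the 4 largest differences were Nfyb, a subunit of the CCAAT-binding NF-Y (1278 with LPS, 4968 with LE and 2827 with LEKU), Rbl2, the p130 subunit of DREAM (1828, 4191 and 3231), and E2f7, a repressor of the E2F family (283, 639 and 253). The remaining one, Foxo3, a forkhead factor of resting cells, had 1821, 3705 and 2406. The lower one was Myc (3627, 1606 and 1755). E2f7 was the 1 gene of the list at least 2-fold lower in LEKU against LE (−1.33), beside 4.73% of all kept genes. Foxm1, an activator of mitotic cyclin genes that was chosen after its values were seen, had 2301, 1178 and 907.

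Genes of the neighbouring phases framed the cyclins differently. The 16 G2/M genes were all below 0 with LE, 9 of them at least 2-fold (median −1.16), beside 4.87% of all kept genes. All were lower again in LEKU against LE, 1 of them 2-fold, beside 4.73% (Kif20a, −1.18). The median of the list was −0.59 there, beside −0.05 over all kept genes. Plk1, a mitotic kinase, had 2829, 412 and 328, Nusap1, a spindle protein, 4082, 1152 and 938, Aurka, another mitotic kinase, 1733, 507 and 377, and Prc1, a midzone protein, 3223, 1087 and 677. The A- and B-type cyclins thus lay within the range of this list with LE, −2.78 to −0.29. The 15 G1/S genes had 1 gene at least 2-fold lower with LE, Pola1 (−1.15), beside 4.87% of all kept genes. None was at least 2-fold higher, beside 15.3% (median −0.20). In LEKU against LE, 14 of 15 were below 0 (median −0.46), beside a median of −0.05 over all kept genes. Rrm2 (0.76), which supplies deoxynucleotides, and Prim1 (0.71) were on the side of Ccne2 with LE, and Mcm6 had −0.71.

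Of 16 further cyclin genes, 13 were kept. At least 2-fold higher with LE were 2 of these 13, close to the 15.3% of all kept genes. None was at least 2-fold lower, beside 4.87% (median 0.19). The 2 higher genes were Ccng1 and Ccno, the latter scarce (2.32, 10.5 and 14.9). Ccnh, the partner of CDK7, had 978, 564 and 524, and Ccnl2, linked to splicing, 6596, 11363 and 10095. Of the p53 targets, the known readout of DNA damage, 11 of 12 were at least 2-fold higher with LE (median 2.89), beside 15.3% of all kept genes. In LEKU against LE, 11 of 12 were below 0 (median −0.61, and −0.05 over all kept genes), 1 of them at least 2-fold, beside 4.73%. The largest with LE after Cdkn1a were Phlda3 (104, 3275 and 3035), Eda2r (3.73, 127 and 54.5) and Zmat3 (927, 9199 and 5842). The median of these 12 with LEKU against LPS was 2.39.

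The genes with the most similar pair of differences (LE against LPS and LEKU against LPS, by Euclidean distance on the log2 scale) were sought among 10875 genes with a mean of at least 100. For Ccnb1, these were Aurka (distance 0.040), Nusap1 (0.056) and Arhgap19 (0.057), and 4 genes lay within 0.1. For Ccnf, they were Dusp7 (0.009), App (0.082) and Rrm2 (0.089), and 3 genes lay within 0.1. Few genes of this level thus lay this close to either pair. Pairs far from 0 have fewer genes around them, so that a low count within a fixed distance does not make a pattern rare. Outside that distance of Ccnf, Cdkn2c (514, 1102 and 511) and E2f7 (283, 639 and 253) were also higher with LE and near LPS with LEKU. Ccne1 had 53 genes within 0.1 (March3, Blnk and Shank1 the nearest), Ccng2 249 (Fut11, Nubp1 and Kctd7) and Ccnd2 445 (Tnfaip1, Gm5428 and Tyw3). With 3 fitted values per gene, this likeness covers 2 numbers and carries no test.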

How the data were processed

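Total mRNA of 12 libraries was sequenced by the authors as 100-base single-end reads. Per the labels' processing notes and the study's methods, reads were trimmed with Trim Galore and cutadapt 1.2.1, mapped with TopHat2 2.0.12 to GRCm38, counted per gene of Ensembl release 78 with HTSeq and fitted with DESeq2 1.6.3. The deposited normalized counts are a signal, the fitted mean of a condition times a factor for each library, and hold no replicate spread. A fitted mean may be drawn toward the other conditions at low counts. The 3 deposited comparisons of the authors hold mean counts, log2 fold changes, standard errors, Wald statistics and p-values and were not used.

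Columns were divided by factors from the median of ratios over genes with a mean of at least 100. Genes that reached a value of 10 in 4 or more libraries were retained. Differences are of log2(value + 1), which understates those of low genes, and at least 2-fold counted as called. The planned limma test needs a spread between libraries and could not be run. Levels per kilobase used merged exons of GENCODE M21 on GRCm38, which gave a length for 99.5% of kept genes. Named genes were all members and, per list, up to 4 with the largest differences in LE against LPS, or, where stated, in LEKU against LE. The 10 members and all lists were chosen with earlier results of these data known. Computation used matplotlib 3.10.9, pandas 2.3.3, scipy 1.17.1 and numpy 2.4.6 under Python 3.11.15, and the functions were tested on simulated data.

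Alternatives were TMM factors, quantile normalization, library totals, no filter, a minimum of 50, pseudocounts of 0.5 and 5, 1.5-fold, and leaving out each library. The median of ratios over all genes and the columns as deposited were added after the data were seen. A B cell marker of the planned list is not reported here.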

Additional observations from a re-analysis of the deposited data

How the results depend on the processing

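No paired analysis was possible because the columns of a condition hold 1 fitted value, so that replicate numbers carry no information and no result comes from a test. For the same reason, leaving out each of the 12 libraries moved the log2 differences of the cyclins by about 0.005 at most, through the scaling factors, and none of the counts of cyclins past 2-fold. No difference past 2-fold of a cyclin turned its direction under the 22 alternatives, but most of these could not have turned one. Filters, pseudocounts and the 1.5-fold limit leave the sign of a difference as it is, and a left-out library hardly moves it. Only the scalings could have turned the sign of such a difference. They shifted Ccnd1 in LE against LPS from 1.46 to between 0.88 and 1.70. A pseudocount of 5 shifted it to 1.26 and left its sign. The kept directions are thus no separate support. In LE against LPS, the number of cyclins at least 2-fold higher (1) became 0 with quantile normalization, 3 at 1.5-fold and 2 with the columns as deposited, and the number lower (3) became 5 with TMM factors, with the median of ratios over all genes and at 1.5-fold. In LEKU against LE, the number lower (1) became 2 with quantile normalization and the columns as deposited and 3 at 1.5-fold. In LEKU against LPS, the number higher (1) became 0 with TMM factors, quantile normalization, a pseudocount of 5 and the median of ratios over all genes. The median of the 10 in LE against LPS (−0.59) was −0.69 with TMM factors, −0.76 with the median of ratios over all genes and −0.34 with the columns as deposited. In LEKU against LE (−0.23) it was −0.31 with the columns as deposited. In LEKU against LPS (−0.66) it was −0.77, −0.79 and −0.50 in the same order and −0.56 with library totals. The median of all kept genes moved with these scalings, in LE against LPS from 0.07 to −0.04 with TMM factors, −0.10 with quantile normalization, −0.11 with the median of ratios over all genes and 0.32 with the columns as deposited, and in LEKU against LPS from 0.09 to between −0.04 and 0.26.

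Over all kept genes, those at least 2-fold higher in LE against LPS (2396) became 1486 with a minimum of 50 and 3761 at 1.5-fold, and those lower (760) became 1357 with quantile normalization, 2111 at 1.5-fold, 1159 with the median of ratios over all genes and 404 with the columns as deposited. In LEKU against LE, 264 higher became 1069 at 1.5-fold, and 738 lower became 427 with a minimum of 50 and 1884 at 1.5-fold. In LEKU against LPS, 1920 higher became 1230 with a minimum of 50 and 3544 at 1.5-fold, and 786 lower became 2083 at 1.5-fold. A higher minimum tests fewer genes and a lower fold calls more by construction, and the cause of the other moves was not tested. Counting error limits Ccnd1, and for all 10 cyclins the table holds no spread between cultures.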
